A study of Mus musculus with 12 samples.

Results

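A set of 10 genes of the Tgf-beta pathway was followed in the livers of leptin-deficient mice with and without ethionine. The members were the 3 ligands Tgfb1, Tgfb2 and Tgfb3, the receptors Tgfbr1 and Tgfbr2, the signal transducer Smad3, the feedback inhibitors Smad7 and Skil, the latent ligand-binding protein Ltbp1 and the activator Thbs1. They were taken by name from a table of 56205 genes after its Ensembl identifiers had been mapped to symbols. The rule uses no expression value, but the members were chosen with earlier results of these data known. All 10 were among the 13416 genes with enough counts to be tested. The series holds whole-liver poly(A) RNA from 12 ob/ob mice, 1 library each, which share the Lep ob mutation on the C57BL/6 background (B6.Cg-Lep ob/J), so no lean or leptin-sufficient mouse was compared. The 6 fibrotic mice (OBOB_Fibrotic) drank DL-ethionine, an ethyl analogue of methionine, with standard chow, and the 6 FLO mice (OBOB_FLO) had standard chow without it. Fibrotic is used here as the group's title and not as a finding on the tissue. The study describes this model by microvesicular steatosis and inflammation, and reports no difference in Col1a1 for it. According to the series' design the dose was 0.165% for 2 weeks, whereas the study's methods give 0.15% for 1 week and one label calls it an injection, so the dose and duration are uncertain. Mice were male per the labels and 8 to 10 weeks old at the start per the study's methods.

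Tgf-beta ligands are secreted in a latent form, tied to the matrix by latent binding proteins such as Ltbp1, and are released by integrins, proteases or thrombospondin. Active ligand is bound by Tgfbr2, which recruits and phosphorylates Tgfbr1. Tgfbr1 in turn phosphorylates Smad2 and Smad3, which enter the nucleus with Smad4. Smad7 blocks the receptor, Skil (also called SnoN) represses Smad-driven transcription, and both are themselves induced by the pathway. In liver the pathway is best known for driving stellate cells to make collagen, and it also restrains hepatocyte proliferation. Much of it is controlled after transcription, by latency and phosphorylation, which mRNA levels do not report.

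FLO replicate 3 went against its labelled sex. It held 3773 counts of Xist, the RNA of the inactive X chromosome, against 0 to 4 in the other 11 libraries, and 4 counts of the Y-linked gene Ddx3y against 556 to 977. Each of the 10 genes is therefore given with and without it. Of the 31 genes taken by the naming rule, 30 kept their direction and side of the call threshold without it, the exception being Acta2, and the largest move in a log2 fold change was 0.22, for Adam12. Total counts were 17815568 to 20352675 per library in fibrotic and 18275320 to 24814263 in FLO mice. The share of counts from mitochondrial genes was 4.93% to 7.88% in fibrotic and 7.3% to 10.2% in FLO livers (two-sided exact permutation test, p = 0.0108, adjusted over 3 measures 0.0325), and its part in the results was not tested. Lep held 0 to 10 counts, in a tissue that does not normally make leptin, so it checks nothing. Hepatocyte markers summed to 54300 to 90400 CPM (counts scaled to a common library size) in fibrotic and 77600 to 92400 in FLO libraries, the high level that the tissue label implies. Sequencing batches are not stated, and values within batches could therefore not be computed.

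Upstream sequences are shown for Tgfbr2, Tgfbr1 and Tgfb1, because Tgfbr2 was called higher while its partner and main ligand were not called. Each run is the 250 bases before the gene's RefSeq start, 5′ to 3′ on the gene's strand (build GRCm38.p6). Capitals mark every match, on both strands, to CAGAC (the Smad box), GGGCGG (the GC box), TATAAA (the TATA box) and TGANTCA (the AP-1 site), and matches of different motifs did not overlap. The Tgfbr2 window is chr9:116175364-116175613 (minus strand), the Tgfbr1 window chr4:47352972-47353221 (plus strand) and the Tgfb1 window chr7:25686752-25687001 (plus strand).
Tgfbr2: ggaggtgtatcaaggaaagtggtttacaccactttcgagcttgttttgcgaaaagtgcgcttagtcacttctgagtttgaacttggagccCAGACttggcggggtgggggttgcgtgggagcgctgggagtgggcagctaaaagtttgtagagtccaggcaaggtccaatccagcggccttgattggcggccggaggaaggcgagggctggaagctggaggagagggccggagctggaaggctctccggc
Tgfbr1: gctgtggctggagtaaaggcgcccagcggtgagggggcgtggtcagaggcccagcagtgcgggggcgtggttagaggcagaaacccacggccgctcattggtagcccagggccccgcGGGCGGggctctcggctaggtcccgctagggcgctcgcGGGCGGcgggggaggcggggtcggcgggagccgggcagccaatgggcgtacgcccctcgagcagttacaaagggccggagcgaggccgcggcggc
Tgfb1: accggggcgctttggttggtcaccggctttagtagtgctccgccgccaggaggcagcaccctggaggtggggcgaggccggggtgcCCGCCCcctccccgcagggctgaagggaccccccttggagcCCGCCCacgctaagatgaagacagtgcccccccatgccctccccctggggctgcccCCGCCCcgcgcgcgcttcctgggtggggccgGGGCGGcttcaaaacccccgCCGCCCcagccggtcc
The Tgfbr2 window held 1 Smad box and no GC box. The Tgfbr1 and Tgfb1 windows held 2 and 5 GC boxes and no Smad box. Neither a TATA box, an AP-1 site nor the longer Smad palindrome GTCTAGAC was found in the 3 windows. Of 32851 promoter windows of this length, 42.2% held a Smad box, 32.7% a GC box, 12.4% a TATA box, 6.75% an AP-1 site and 0.167% the palindrome, so a match is a description of the letters and not evidence of a binding site. G and C made up 58.4% of the bases in the Tgfbr2 window, 74.8% in Tgfbr1 and 75.2% in Tgfb1. RefSeq promoters were matched for 6 of the 10 members.

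Of the 10 genes, Tgfbr2 and Skil rose in fibrotic livers, none fell, and the 3 ligands and Smad3 lay within the spread between mice. Tgfbr2 was 2.0-fold and Skil 2.35-fold higher, and for both genes every fibrotic library lay above every FLO library. A gene was called by the edgeR quasi-likelihood test at a Benjamini-Hochberg adjusted p of 0.01 or less and an absolute log2 fold change over 0.5. By this rule 2 of 10 members were called higher, where 15.9% of all tested genes were called higher and 29.9% were called in either direction. At an adjusted p of 0.05 or less and any fold, 4 of 10 members differed, against 52.1% of all tested genes. No overlap between groups was seen for the same 2 of 10, where 30.4% of all tested genes had none. The share of members that changed was thus near the background of a treatment that moved much of the transcriptome. No member was called lower by edgeR, against 14.0% of all tested genes. DESeq2 and limma-voom also called none lower, and 0 members were lower at an unadjusted p under 0.05. The median log2 fold change was 0.15 over the 10 members and 0.03 over all tested genes. In whole tissue, fewer cells of a type and less RNA per cell cannot be told apart.

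**Figure D1:**
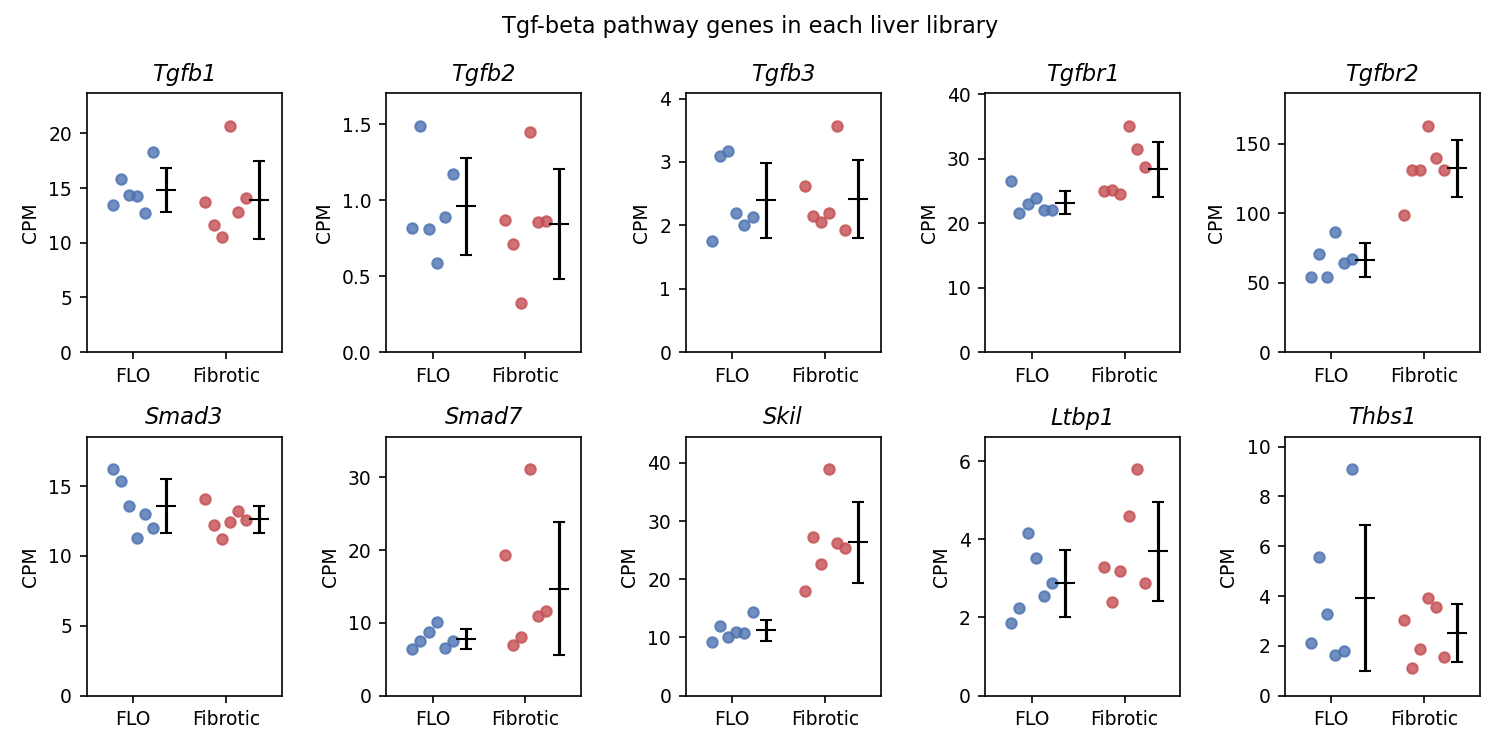
Expression of each of the 10 genes in CPM (vertical axis, from 0, scaled separately for each gene) in the 6 FLO (blue) and 6 fibrotic (red) libraries. Points are libraries and the black bars are the mean and SD of each group. Only for Tgfbr2 and Skil do the 2 groups of points not overlap, and fibrotic replicate 4 is the highest fibrotic point for Tgfb1, Tgfb2, Tgfbr1, Tgfbr2, Smad7, Skil and Thbs1.

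Tgfb1, the most abundant of the 3 ligands here, was not called in either direction. Its level was 10.5 to 20.7 CPM in fibrotic libraries (median 13.3) and 12.7 to 18.3 CPM in FLO libraries (median 14.4). In all, 5 of the 6 fibrotic libraries lay below the FLO median, and fibrotic replicate 4 alone lay above the whole FLO range. It had a log2 fold change of -0.09 with a 95% interval of -0.41 to 0.22 (edgeR, adjusted p = 0.614), so an increase of more than about 0.22 on the log2 scale lies outside the interval. Without FLO replicate 3 the log2 fold change was -0.11 (edgeR, adjusted p = 0.605). The gene lies at chr7:25687002-25705077 on the plus strand (GENCODE M21, GRCm38), and no annotated gene overlaps it.

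Tgfb2 and Tgfb3 were scarce. Tgfb2 was read 6 to 31 times per fibrotic library and 12 to 26 times per FLO library. These counts correspond to 0.323 to 1.45 CPM (median 0.858) and 0.588 to 1.49 CPM (median 0.854), with a log2 fold change of -0.17 and a wide interval of -0.85 to 0.51 (edgeR, adjusted p = 0.683). Without FLO replicate 3 the log2 fold change was -0.22 (edgeR, adjusted p = 0.627). Tgfb3 lay at 1.92 to 3.57 CPM (median 2.17) in fibrotic and 1.75 to 3.17 CPM (median 2.17) in FLO livers, and fibrotic replicate 5 was its highest library. Its log2 fold change was 0.01 (interval -0.43 to 0.45, edgeR adjusted p = 0.97), and 0.11 without FLO replicate 3 (edgeR, adjusted p = 0.696), and the sign turned under RLE normalization, upper quartile normalization and DESeq2. Tgfb2 (chr1:186622792-186705989, minus strand) is overlapped by Gm26169 and Gm29491, and Tgfb3 (chr12:86056745-86079041, minus strand) by Ttll5, Gm37804 and Gm48008, all on the opposite strand. Whether the counting used strand is not stated for these libraries, so reads of these neighbours cannot be told apart from those of the ligands.

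No shift in the ligand makeup was detected. As a share of the 3 ligands' summed counts per kb of transcript, Tgfb1 made up 85.7 ± 3.2% in fibrotic and 86.6 ± 2.47% in FLO livers (SD, n = 6 each). Tgfb3 made up 11.7 ± 3.35% against 10.6 ± 2.28%, and Tgfb2 2.54 ± 0.624% against 2.79 ± 0.718% (SD, n = 6 each). The differences were -0.866 percentage points for Tgfb1, -0.251 for Tgfb2 and 1.12 for Tgfb3, all smaller than the SD within a group (exact permutation tests, two-sided, p = 0.623, 0.519 and 0.517, adjusted over the 3 ligands 0.623 for each). Without FLO replicate 3 the differences were -1.46, -0.334 and 1.79 points, with an adjusted p of 0.429 for each by the exact permutation test.

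Tgfbr2, the ligand-binding receptor, rose in all 6 fibrotic mice. It lay at 98.7 CPM in the lowest, 131 CPM in the median and 163 CPM in the highest fibrotic library, against 54.0, 65.8 and 86.7 CPM in FLO. Fibrotic replicate 1 was the lowest of its group and still exceeded FLO replicate 4, the highest of the controls. Its log2 fold change was 1.0 (SE 0.129, interval 0.73 to 1.27, edgeR adjusted p = 1.27e-05) and 0.95 without FLO replicate 3 (edgeR, adjusted p = 4.22e-05). The gene lies at chr9:116084293-116175360 on the minus strand and no annotated gene overlaps it.

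Tgfbr1, the kinase partner, was not called. Its level was 24.6 to 35.1 CPM (median 26.9) in fibrotic and 21.6 to 26.5 CPM (median 22.5) in FLO libraries. All 6 fibrotic libraries lay above the FLO median, and FLO replicate 1 was above 3 of them. The log2 fold change of 0.29 (SE 0.0979, interval 0.08 to 0.50) had an adjusted p of 0.0217 by edgeR and did not pass the call rule on either its p or its size. Without FLO replicate 3 it was 0.28 (edgeR, adjusted p = 0.0388). The gene lies at chr4:47353222-47414931 on the plus strand.

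The balance of the 2 receptors within a library also stood apart between groups. Per kb of transcript, Tgfbr2 was 2.81 to 3.78 times Tgfbr1 in fibrotic libraries (median 3.28) and 1.46 to 2.58 times in FLO libraries (median 2.12), and the ranges did not overlap. Against Tgfb1, Tgfbr2 stood at 2.29 to 3.95 (median 3.22) in fibrotic and 1.17 to 1.92 (median 1.34) in FLO livers. A ratio within a library does not depend on the scaling between libraries, and these ratios are given as a description, without a test.

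**Figure D2:**
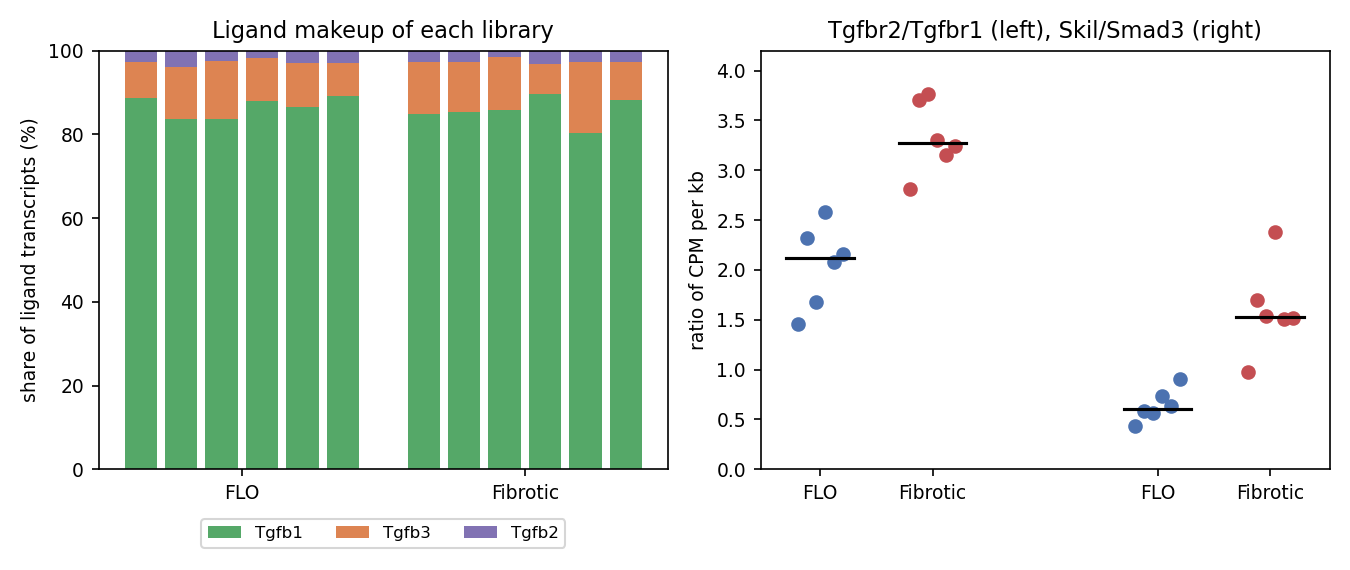
Left, share of Tgfb1, Tgfb3 and Tgfb2 in the summed ligand counts per kb (percent, vertical axis) in each of the 6 FLO and 6 fibrotic libraries, drawn as stacked bars from replicate 1 to 6. Right, ratio of CPM per kb of Tgfbr2 to Tgfbr1 and of Skil to Smad3 (vertical axis), with points for libraries and lines for medians. The ligand shares overlap between groups, while the medians of the 2 ratios go from 2.12 to 3.28 and from 0.608 to 1.53 and their ranges do not overlap.

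Smad3, the transducer, lay at 11.2 to 14.1 CPM (median 12.5) in fibrotic and 11.3 to 16.2 CPM (median 13.3) in FLO livers. FLO replicates 1 and 2, at 16.2 and 15.4 CPM, lay above every fibrotic library, and the other libraries overlapped. It had a log2 fold change of -0.11 (interval -0.33 to 0.11, edgeR adjusted p = 0.402), and -0.11 without FLO replicate 3 (edgeR, adjusted p = 0.446). The gene lies at chr9:63646767-63757994 on the minus strand.

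Skil, the nuclear corepressor of the Smads, showed the largest fold change of the 10 genes. Its level was 18.0 CPM in the lowest, 25.8 in the median and 38.9 in the highest fibrotic library, against 9.30, 10.9 and 14.3 CPM in FLO. Fibrotic replicate 1 was again the lowest and replicate 4 the highest of the treated mice, and no fibrotic library reached down to FLO replicate 6, the highest control. Its log2 fold change was 1.23 (SE 0.157, interval 0.90 to 1.57, edgeR adjusted p = 1.16e-05) and 1.20 without FLO replicate 3 (edgeR, adjusted p = 5.08e-05). Per kb, Skil went from 0.608 times Smad3 (median, range 0.434 to 0.905) in FLO to 1.53 times (0.969 to 2.39) in fibrotic livers. The gene lies at chr3:31095058-31122577 on the plus strand.

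Smad7, the receptor-level inhibitor, was high in some treated mice and at control level in others. Fibrotic replicates 4 and 1 held 31.1 and 19.3 CPM, replicates 6 and 5 held 11.7 and 11 CPM, and replicates 3 and 2, at 8.08 and 7.03 CPM, lay inside the FLO range of 6.40 to 10.1 CPM (median 7.47). The SD among fibrotic libraries was 9.11 CPM, against 1.41 CPM among FLO libraries. The log2 fold change of 0.91 (SE 0.320, interval 0.22 to 1.6) had an adjusted p of 0.0282 by edgeR and was not called. DESeq2 gave 0.89 with an adjusted p of 0.00833 and did call it. In contrast, limma-voom gave 0.74 with an adjusted p of 0.0804, and edgeR without the low-count filter an adjusted p of 0.0809. Without fibrotic replicate 4 the log2 fold change was 0.56 (edgeR, adjusted p = 0.0538), and without FLO replicate 3 it was 0.95 (edgeR, adjusted p = 0.0394).

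Ltbp1, which holds the latent ligand in the matrix, lay at 2.39 to 5.79 CPM (median 3.24) in fibrotic and 1.86 to 4.15 CPM (median 2.72) in FLO livers. In all, 5 of 6 fibrotic libraries lay above the FLO median, with replicate 5 the highest, but the groups overlapped (log2 fold change 0.35, interval -0.15 to 0.86, edgeR adjusted p = 0.23). Without FLO replicate 3 it was 0.49 (edgeR, adjusted p = 0.105). Ltbp1 (chr17:75005568-75392512, plus strand) contains the pseudogene Gm6276 on the same strand.

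Thbs1, or thrombospondin, an activator of latent Tgf-beta, was uneven among control mice. FLO replicates 6 and 2 held 9.09 and 5.57 CPM, while the other FLO libraries held 1.62 to 3.29 CPM and the fibrotic libraries 1.12 to 3.93 CPM (median 2.47). The log2 fold change of -0.63 had an interval of -1.58 to 0.32 (edgeR, adjusted p = 0.251), and it was -0.19 without FLO replicate 6 (edgeR, adjusted p = 0.706) and -0.68 without FLO replicate 3 (edgeR, adjusted p = 0.255). Thbs1 (chr2:118111876-118127133, plus strand) is overlapped by the antisense transcript Gm29233.

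**Figure D3:**
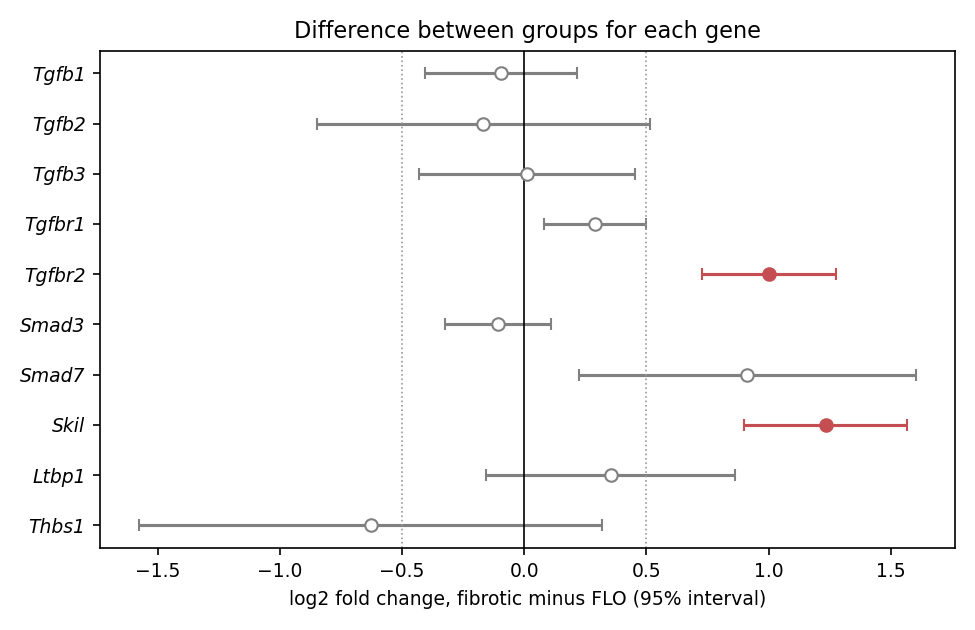
Log2 fold change of each gene, fibrotic minus FLO (horizontal axis), with its 95% interval from the edgeR fit over 12 libraries. Filled red points are called genes, open grey points are not, and the dotted lines mark a log2 fold change of 0.5 in either direction. Tgfbr2 at 1.0 and Skil at 1.23 stand clear of the line, Smad7 at 0.91 has an interval reaching down to 0.22, and the intervals of Tgfb1, Tgfb2, Tgfb3, Smad3, Ltbp1 and Thbs1 include 0.

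Levels can be compared between genes only per length. In CPM per kb of the longest annotated transcript, the FLO order was Tgfbr2 (8.17), Tgfb1 (5.77), Tgfbr1 (4.03), Smad3 (2.67), Smad7 (1.82), Skil (1.67), Tgfb3 (0.708), Thbs1 (0.669), Ltbp1 (0.430) and Tgfb2 (0.188). The library ranges of neighbours overlapped except between Tgfb1 and Tgfbr1, between Tgfbr1 and Smad3 and between Skil and Tgfb3. In fibrotic livers Tgfbr2 stood apart at 16.4, followed by Tgfb1 (5.40), Tgfbr1 (4.92), Skil (3.93), Smad7 (3.44), Smad3 (2.48), Tgfb3 (0.715), Ltbp1 (0.553), Thbs1 (0.431) and Tgfb2 (0.165). There only Tgfbr2 and Tgfb1, and Smad3 and Tgfb3, had ranges that did not overlap. By their means, Smad7 and Skil stood below Smad3 in FLO and above it in fibrotic livers. For Smad7 the ratio to Smad3 overlapped, at 0.687 to 2.99 in fibrotic (median 1.05) and 0.469 to 1.07 in FLO libraries (median 0.672), and fibrotic replicates 2, 3 and 5 held less Smad7 than Smad3. The order depends on the length used, since Tgfb1 has a longest transcript of 2573 bases and an exon union of 5042 bases.

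Ligand, activator and feedback genes were then compared among mice of the same group, as 6 pairs of genes in 2 groups. None of the 12 relations passed an adjusted p of 0.05. The strongest among treated mice was Tgfb1 with Smad7 (Pearson r = 0.91, exact permutation p = 0.00972, adjusted 0.0583, Spearman rho = 0.89, exact p = 0.0333, adjusted 0.35, n = 6). With the 2 libraries farthest from the median of Tgfb1 left out, r was 0.78. The same pair gave r = 0.18 in FLO mice (exact permutation p = 0.732, adjusted 0.896, rho = 0.43, exact p = 0.419, adjusted 0.719, n = 6), and whether the 2 groups differ in this relation was not tested. Among FLO mice Tgfb1 and Thbs1 gave r = 0.92 (exact permutation p = 0.00972, adjusted 0.0583, rho = 0.83, exact p = 0.0583, adjusted 0.35, n = 6) and 0.80 without the 2 farthest libraries. Smad7 and Skil, the 2 feedback genes, gave r = 0.34 in fibrotic (exact permutation p = 0.514, adjusted 0.771, rho = 0.03, exact p = 1.0, adjusted 1.0, n = 6) and 0.07 in FLO mice (exact permutation p = 0.896, adjusted 0.896, rho = 0.37, exact p = 0.497, adjusted 0.746, n = 6). Leaving out the 2 libraries farthest from the median of Smad7 gave -0.01 in fibrotic and 0.88 in FLO mice, so these values were not stable. The other relations had an adjusted exact p of 0.133 or more for r.

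Over the 12 libraries, the genes whose standardized log2 CPM lay closest to each ligand were Tent4a and Acin1 for Tgfb1 (root mean square differences of 0.467 and 0.475 SD), Far1 and Nr4a1 for Tgfb2 (0.428 and 0.551) and Lamb2 and Antxr1 for Tgfb3 (0.543 and 0.545). The median over all tested genes was 1.42 for Tgfb1 and Tgfb2 and 1.41 for Tgfb3. Lamb2 is a laminin chain and Antxr1 a collagen-binding surface receptor. All of these genes were picked as the nearest among 13416 tested genes, and a link to the ligands was not tested.

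The wider pathway was described by 8 lists of genes sorted by role, 120 genes in all including the 10. Of these, 108 could be tested, 18 were called higher and 6 lower, which is 22.2% of those tested against 29.9% of all genes. Their median log2 fold change was 0.17. A gene may stand in more than 1 list.

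**Figure D4:**
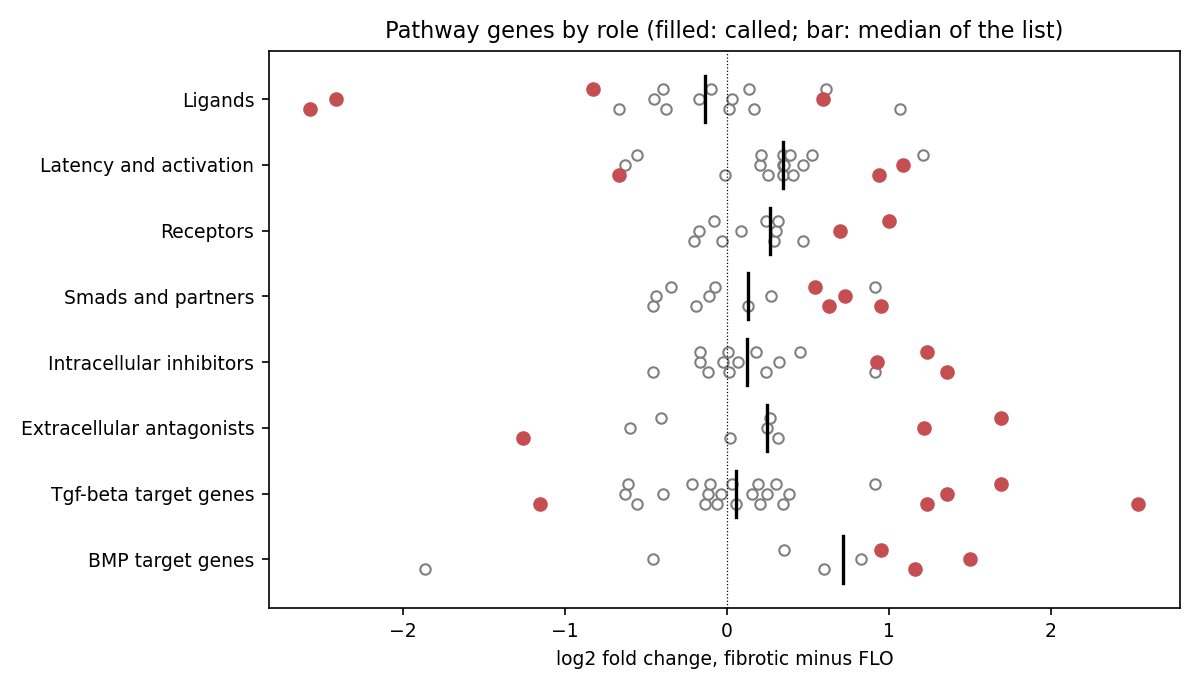
Log2 fold change, fibrotic minus FLO (horizontal axis), of every tested gene in 8 lists of Tgf-beta superfamily genes by role. Filled red points are called genes, open points are not, and vertical bars are list medians. The ligand list has 3 called genes on the left and 1 on the right, while the receptor, Smad, intracellular inhibitor and BMP target lists have called genes only on the right.

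Among the ligands, 16 of 19 genes were tested, 1 was called higher and 3 lower (25.0%, against 29.9% of all tested genes). The other 12 were not called, and the median log2 fold change was -0.13. The called genes were relatives of Tgf-beta and not Tgf-beta itself. Bmp7, a bone morphogenetic protein (BMP), fell from 5.32 ± 1.09 to 0.890 ± 0.558 CPM (SD, n = 6 each, log2 fold change -2.57, edgeR adjusted p = 7.31e-06). Inhbe, the activin E subunit made by hepatocytes, fell from 123 ± 26.0 to 23.1 ± 13.8 CPM (SD, n = 6 each, log2 fold change -2.41, edgeR adjusted p = 0.000168). For both genes no fibrotic library reached the FLO range. Bmp4 fell by 0.82 on the log2 scale (edgeR, adjusted p = 0.00934), a call that was lost without any 1 library other than fibrotic replicate 1 or FLO replicate 3 (adjusted p up to 0.0279), without the low-count filter (0.0132) and by limma-voom (0.0158). Bmp6, the endothelial ligand that controls hepcidin, rose by 0.59 (edgeR, adjusted p = 0.00366), and by 0.49 without fibrotic replicate 4, which is under the fold threshold. The hepcidin genes Hamp and Hamp2, BMP targets named after their values were seen, were not called. Their log2 fold changes were 0.35 (edgeR, adjusted p = 0.156) and -1.86 (edgeR, adjusted p = 0.0668). Hamp2 was very uneven among controls, at 22.4 to 485 CPM (SD 175) in FLO and 11.7 to 67.3 CPM in fibrotic libraries. Its fold change without FLO replicate 3 is not given here.

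Of the latency and activation genes, 18 of 20 were tested, 2 were called higher and 1 lower (16.7%, against 29.9% of all tested genes). The median was 0.35. Tgm2, a transglutaminase that crosslinks latent complexes to matrix, rose from 202 ± 26.8 to 430 ± 54.7 CPM (SD, n = 6 each, log2 fold change 1.09, edgeR adjusted p = 1.62e-06). Itgb3, the integrin beta 3 chain, rose by 0.94 (edgeR, adjusted p = 0.000169), and the latent binding protein Ltbp4 fell by 0.67 (edgeR, adjusted p = 0.000129). These 3 were the only ones of the 18 tested without overlap between groups, where 30.4% of all tested genes had none. They were named because they were called, so their contrast with the uncalled Ltbp1 and Thbs1 is not a separate result.

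Of the receptors, 12 of 15 were tested and 2, Tgfbr2 and Bmpr1a, were called higher (16.7%, against 15.9% of all tested genes). The median was 0.27. No receptor was called lower by edgeR, DESeq2 or limma-voom, and 1 was lower at an unadjusted p under 0.05. Bmpr1a, a BMP type I receptor, rose from 23.0 ± 1.52 to 37.4 ± 4.95 CPM (SD, n = 6 each, log2 fold change 0.70, edgeR adjusted p = 1.20e-05), without overlap.

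Of the Smads and their partners, all 13 were tested, 4 were called higher (30.8%, against 15.9% of all tested genes) and 0 lower. The median was 0.13. DESeq2 and limma-voom also called 0 lower, and 3 were lower at an unadjusted p under 0.05. Smad2, which shares the Tgf-beta receptor with Smad3, rose from 16.4 ± 1.98 to 27.3 ± 1.53 CPM (SD, n = 6 each, log2 fold change 0.73, edgeR adjusted p = 5.71e-06), without overlap, while Smad3 did not pass the test. The BMP-regulated Smad9 and Smad1 rose by 0.95 (edgeR, adjusted p = 0.00139) and 0.63 (edgeR, adjusted p = 8.74e-05). Smad5, the third BMP-regulated Smad, named after its values were seen, lay the other way, at 12.7 to 18.5 CPM in fibrotic and 19.9 to 22.5 CPM in FLO livers without overlap. Its log2 fold change of -0.34 (edgeR, adjusted p = 0.00569) was under the fold threshold. The remaining call was Trim33, a Smad4-binding ubiquitin ligase named after its values were seen, at 0.55 (edgeR, adjusted p = 0.000221).

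Of 16 intracellular inhibitors, all were tested, 3 were called higher (18.8%, against 15.9% of all tested genes) and 0 lower, with a median of 0.13. DESeq2 and limma-voom also called 0 lower, and 1 was lower at an unadjusted p under 0.05. The 3 were Skil, its relative Ski and Pmepa1, a membrane protein that keeps Smad2 and Smad3 from the receptor. Pmepa1 rose from 5.15 ± 1.94 to 13.2 ± 5.26 CPM (SD, n = 6 each, log2 fold change 1.36, edgeR adjusted p = 0.00123). Ski rose from 28.9 ± 4.38 to 55 ± 18.4 CPM (SD, n = 6 each, log2 fold change 0.93, edgeR adjusted p = 0.000544). All 3 were without overlap, and the highest fibrotic library was replicate 4 for each. In the list 4 of 16 genes had no overlap, where 30.4% of all tested genes had none. The fourth was Strap, named after its values were seen, whose log2 fold change of 0.45 (edgeR, adjusted p = 4.14e-05) was under the fold threshold.

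Of the extracellular antagonists, 9 of 11 were tested, 2 were called higher and 1 lower (33.3%, against 29.9% of all tested genes). The median was 0.25. The activin-binding proteins Fstl3 and Fst (follistatin) rose by 1.69 (edgeR, adjusted p = 0.00138) and 1.22 (edgeR, adjusted p = 0.00254). Fstl3 was scarce, with 23 to 54 counts per fibrotic and 1 to 19 per FLO library. Fst overlapped between groups, with a fibrotic minimum of 1.83 CPM and a FLO maximum of 2.34 CPM.

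Of the Tgf-beta target genes, 25 of 27 were tested, 4 were called higher and 1 lower, with a median of 0.06. The 4 were Cdkn1a, Adam12, Pmepa1 and Skil. Cdkn1a, the cell cycle inhibitor p21, which is also a p53 target, rose from 33.8 ± 15 to 197 ± 86.2 CPM (SD, n = 6 each, log2 fold change 2.54, edgeR adjusted p = 0.000148). Adam12, a metalloprotease of activated stellate cells, rose by 1.69 (edgeR, adjusted p = 0.000806). It was scarce, with 15 to 33 counts per fibrotic and 2 to 13 per FLO library. Acta2, the smooth muscle actin that marks contractile myofibroblasts, fell by 1.15 (edgeR, adjusted p = 0.00446), a call lost without fibrotic replicate 3, 4 or 6 or FLO replicate 3 or 6 (edgeR, adjusted p up to 0.0123) and without the low-count filter (adjusted p = 0.0139). The targets Ccn2 and Col1a1, named after their values were seen, were not called. Ccn2 had a log2 fold change of 0.39 (interval -0.09 to 0.87, edgeR adjusted p = 0.163) and the collagen gene Col1a1 one of -0.22 (interval -0.94 to 0.51, edgeR adjusted p = 0.611).

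Of 8 BMP target genes, all were tested, 3 were called higher (37.5%, against 15.9% of all tested genes) and 0 lower. The median was 0.72. DESeq2 and limma-voom also called 0 lower, and 2 were lower at an unadjusted p under 0.05. Smad6, named after its values were seen, was 1 of them, with a log2 fold change of -0.46 (edgeR, adjusted p = 0.0051). That was under the fold threshold, and 0 of 6 fibrotic libraries lay above its FLO median. Id1, an inhibitor of helix-loop-helix factors, rose from 11.4 ± 1.92 to 32.0 ± 19.6 CPM (SD, n = 6 each, log2 fold change 1.5, edgeR adjusted p = 0.00255), with fibrotic replicate 4 at 67.4 CPM and replicate 2 at 14.2 CPM. Without the low-count filter its adjusted p was 0.0109, just short of a call. Atoh8 rose from 20.7 ± 3.38 to 46.1 ± 7.87 CPM (SD, n = 6 each, log2 fold change 1.16, edgeR adjusted p = 3.32e-06), and the third was Smad9.

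Markers of several liver cell types moved with the groups. Kupffer cell and macrophage markers summed to 283 to 590 CPM in fibrotic and 229 to 270 CPM in FLO libraries, with 7 of 9 genes called higher (exact permutation test of the mean log2 CPM, p = 0.00216, the smallest this design allows, adjusted over 8 lists 0.00866). Cholangiocyte markers summed to 80.7 to 275 CPM against 47.2 to 88.0 CPM, with 3 of 5 tested genes called higher (exact permutation p = 0.00649, adjusted 0.0173). Endothelial markers were lower, at 199 to 247 against 250 to 288 CPM, with 1 of 8 called (exact permutation p = 0.00216, adjusted 0.00866). The rise of Tgfbr2, which is abundant in endothelial cells, was seen beside lower endothelial and higher macrophage and cholangiocyte markers. The part of these cells in that rise was not tested.

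Markers of mesothelium and portal fibroblasts summed to 6.41 to 15.1 CPM in fibrotic and 23.4 to 41.8 CPM in FLO libraries (exact permutation p = 0.00866, adjusted 0.0173, 1 of 6 called lower). Stellate cell markers, from the cell type that makes most liver collagen, summed to 386 to 523 against 353 to 442 CPM, with 2 of 10 called higher (exact permutation p = 0.0823, adjusted 0.094). Platelets store Tgfb1 and Thbs1, and their markers summed to 6.58 to 11 against 4.75 to 6.04 CPM (exact permutation p = 0.0108, adjusted 0.0173), with 1 of 2 tested genes called higher. Hepatocyte markers differed by -0.22 on the log2 scale (exact permutation p = 0.0649, adjusted 0.0866) and lymphocyte markers, at 1.22 to 3.70 against 1.37 to 2.96 CPM, by 0.18 (exact permutation p = 0.379, adjusted 0.379). No marker was at 0 in every library, and without FLO replicate 3 each of the 8 lists kept its direction and its side of an adjusted p of 0.05. The part of these cell types in the changes of Tgfbr2, Skil and the other genes was not tested.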

How the data were processed

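The deposited table holds integer read counts by Ensembl gene identifier, which the authors had not normalized. The submitters' processing notes name bcl2fastq, STAR 2.7.3a and the build mm10, and the study's methods name the PISCES and EQP pipelines for its RNA-seq. The annotation release and the use of strand for these libraries are not given in the sources used here. Symbols were matched for 51745 of 56205 identifiers, and the rest held 0.0587% of counts. Groups and replicate numbers came from the sample titles. Positions and transcript lengths are from GENCODE M21 (GRCm38).

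Counts were tested in R 4.3.3 with edgeR 4.0.16 (robust quasi-likelihood fit, TMM normalization, filterByExpr, Benjamini-Hochberg over 13416 genes), checked on simulated data. SE is the absolute log2 fold change divided by the square root of F. The thresholds are those of the study's methods, which used DESeq2. CPM uses TMM-scaled library sizes, and log2 CPM a prior count of 2. Single values were compared by the two-sided exact permutation test over 924 assignments (smallest p 0.00216), and relations over 720 orderings. Nothing says more of the replicates than 1 library per mouse, and every pair of libraries in a group differed by more than sampling noise (chi-square per degree of freedom at least 10.9). Errors are SDs between libraries and include the counting error.

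The members, lists and tests were chosen with earlier results of these data known. Named were the 10 members, up to 3 largest and 3 smallest log2 fold changes among the called genes of each role list, the 2 genes nearest each ligand, Xist, Ddx3y and Lep. Some genes that the rule or the lists hold are not reported here. The alternatives were normalization by RLE, by upper quartile or by TMM with the top 50 genes removed, no filter on low counts or a minimum of 10 counts per library, DESeq2 1.42.0, limma-voom (limma 3.58.1), a non-robust fit, the replicate block, an adjusted p of 0.05 at any fold, and leaving out each library, besides other lengths, prior counts and marker scores.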

Additional observations from a re-analysis of the deposited data

Results flagged for a closer look

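Of 94 groups of 6 values examined, 5 had 1 library standing apart from the others by Dixon's 95% limit for 6 samples, and chance alone flags about 1 in 20. The ratio given is the gap to the nearest library over the whole range of the group. FLO replicate 3 stood apart for Xist (1.0, highest) and Ddx3y (0.946, lowest), the 2 genes that went against its labelled sex. Fibrotic replicate 3 had the lowest share of Tgfb2 among the ligands, 1.33% (0.72), from 6 counts. FLO replicate 5 had the lowest Tgm2 of its group, at 152 CPM (0.651), and FLO replicate 1 the lowest Fstl3 (0.713), from 1 count.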

How the results depend on the processing

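Tgfbr2 and Skil were called higher under every alternative run, with log2 fold changes of 0.94 to 1.09 and 1.10 to 1.33 when single libraries were left out. With an adjusted p of 0.05 at any fold, 4 members were higher (Tgfbr1 and Smad7 added), 33 pathway genes were higher and 14 lower, and 6994 of all genes were called in place of 4012 (52.1% of those tested). Without the low-count filter 3 pathway genes were called lower. Leaving out single libraries gave 2 members called higher and 0 lower, 16 to 19 pathway genes higher and 4 to 6 lower. Tgfb3 turned to -0.01 under RLE normalization and DESeq2 and to -0.016 under upper quartile normalization, and ranged from -0.13 to 0.11 with single libraries left out. Without fibrotic replicate 1 it was -0.01, without fibrotic replicate 5 -0.13, and without FLO replicates 1, 4, 5 and 6 -0.07, -0.01, -0.04 and -0.02. The share of Tgfb1 differed by -1.64 to 0.215 percentage points, that of Tgfb2 by -0.448 to -0.00846 and that of Tgfb3 by 0.0662 to 2.02 with single libraries left out. Without the 2 farthest libraries, r turned to -0.52 for Tgfb1 and Skil, -0.22 for Thbs1 and Skil and -0.01 for Smad7 and Skil in fibrotic mice, and to 0.07 for Thbs1 and Smad7 and -0.44 for Thbs1 and Skil in FLO mice. Scored by summed CPM, hepatocyte markers were lower by a log2 difference of -0.29 (exact permutation test, adjusted p = 0.0491). The cause of these changes was not tested.

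Same-numbered libraries did not deviate together (r from -0.162 to 0.104, and 0 of the 6 fibrotic libraries correlated best with its own number), so the numbers do not pair the mice. With a replicate block 2 members were called higher and 0 lower, 16 pathway genes higher and 4 lower, and 3780 genes in all, and Bmp4, Bmp6, Acta2 and Id1 were not called (edgeR, adjusted p = 0.012, 0.014, 0.0283 and 0.0121). Over the 31 genes taken by the naming rule and all alternatives, 637 of 678 values kept their direction and side of the threshold, 29 lost a call, 3 gained one and the 9 that turned were all Tgfb3. Tgfb2 had the fewest counts of the members, 6 to 31 per library.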
